A study of Mus musculus with 6 samples.

Results

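The homeostatic microglia genes are 9 genes used as markers of resting microglia, the resident macrophages of the brain, though not all are exclusive to these cells. They were chosen by symbol, P2ry12, Tmem119, Cx3cr1, Sall1, Siglech, Gpr34, Selplg, Olfml3 and Csf1r, and all 9 were found among the 18211 genes of the table and passed the filter on low values. Their transcripts were followed in oligodendrocyte precursor cells (OPCs), the progenitors of myelin-forming glia. RNA was sequenced from 3 wildtype and 3 DISC1-Δ3 libraries. DISC1-Δ3 mice are NG2-CreERTM:DISC1 exon3 fl/+ mice on the C57BL/6 strain. In them the NG2 promoter drives a tamoxifen-inducible Cre that removes exon 3 from 1 allele of Disc1, in OPCs and in any other cell that uses this promoter. Wildtype mice were C57BL/6, and the study's text calls them non-CreERT, so that the Cre, the floxed allele and the deletion cannot be told apart here. Both groups received tamoxifen by gavage on 4 days, from postnatal day 4 to 7, and OPCs were isolated on postnatal day 7 by immunopanning on PDGFRα. Neither the number of mice behind a library nor whether replicates are separate animals is given in the sources used here, so the p-values measure the spread between these libraries.

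Microglia arise from yolk sac progenitors and depend throughout life on the receptor CSF1R, which binds the growth factors CSF1 and IL-34. The transcription factors PU.1 (Spi1), IRF8 and RUNX1 set up the myeloid program, and TGF-β signaling through SMAD factors, together with SALL1, keeps the resting state in the brain. P2RY12 senses ADP and directs the processes of microglia to injury, CX3CR1 receives neuronal fractalkine (CX3CL1), and TMEM119, SIGLECH and OLFML3 serve as markers that separate microglia from other macrophages. In activated microglia many of these genes are known to fall while genes such as Apoe, Axl, Cst7, Lpl, Clec7a, Spp1, Gpnmb and Itgax rise.

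The 9 genes were abundant in libraries labelled as OPCs. Their RPKM, the read count relative to transcript length and sequencing depth, summed to 4481 to 4529 in wildtype libraries, against 487.04 to 505.3 for 8 OPC markers. In DISC1-Δ3 libraries the sums were 3233 to 3371 and 598.8 to 616.4. The 9 genes took 1.24% to 1.25% of all reads counted on genes in wildtype and 0.888% to 0.934% in DISC1-Δ3 libraries. Csf1r ranked 28th to 32nd of all genes by RPKM in wildtype libraries. Pdgfra, the target of the panning, had a mean RPKM of 17.5 ± 0.503 in wildtype and 25.9 ± 0.915 in DISC1-Δ3 libraries (SD, n = 3 each). The ratio of Csf1r to Pdgfra was 105, 108 and 108 in wildtype libraries, against 50.9, 53.2 and 49.4 in DISC1-Δ3 libraries. The defining OPC markers were therefore present, and microglia transcripts were present at higher levels per length beside them. In these bulk samples, fewer microglia and less of each transcript per microglial cell cannot be told apart. Libraries held 13716619 to 16417219 reads counted on genes. DISC1-Δ3 replicate 3 stood apart from the other DISC1-Δ3 libraries, with chi-square values, per degree of freedom, of 4.98 and 5.38 against 2.59 for the pair without it. The targeted gene, Disc1, had an RPKM of 3.51, 3.34 and 3.81 in wildtype libraries, against 2.86, 2.44 and 2.85 in DISC1-Δ3 libraries, values that do not resolve exon 3. The log2 fold change of Disc1 was -0.45 (adjusted p = 0.000528).

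All 9 homeostatic microglia genes were lower in DISC1-Δ3 libraries at an adjusted p under 0.05 (edgeR's quasi-likelihood test, with the Benjamini-Hochberg adjustment over 13792 tested genes), except when libraries were scaled by microglia reads alone, as described further on. The median log2 fold change of the 9 genes was -0.49, against 0.01 for all tested genes. In the same fit 39.9% of all tested genes passed the threshold, with 19.5% of tested genes lower and 20.4% higher. For every one of the 9 the groups did not overlap in RPKM, which held for 52.0% of tested genes in either direction and for 16.1% in the lower direction. On reads scaled by edgeR's factors the changes ran from -14.98% for P2ry12 to -37.5% for Selplg. With libraries scaled by RPKM sums, P2ry12 changed by -9.74% and Selplg by -33.7%. The calls held without DISC1-Δ3 replicate 3 and without each other library in turn.

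**Figure D1:**
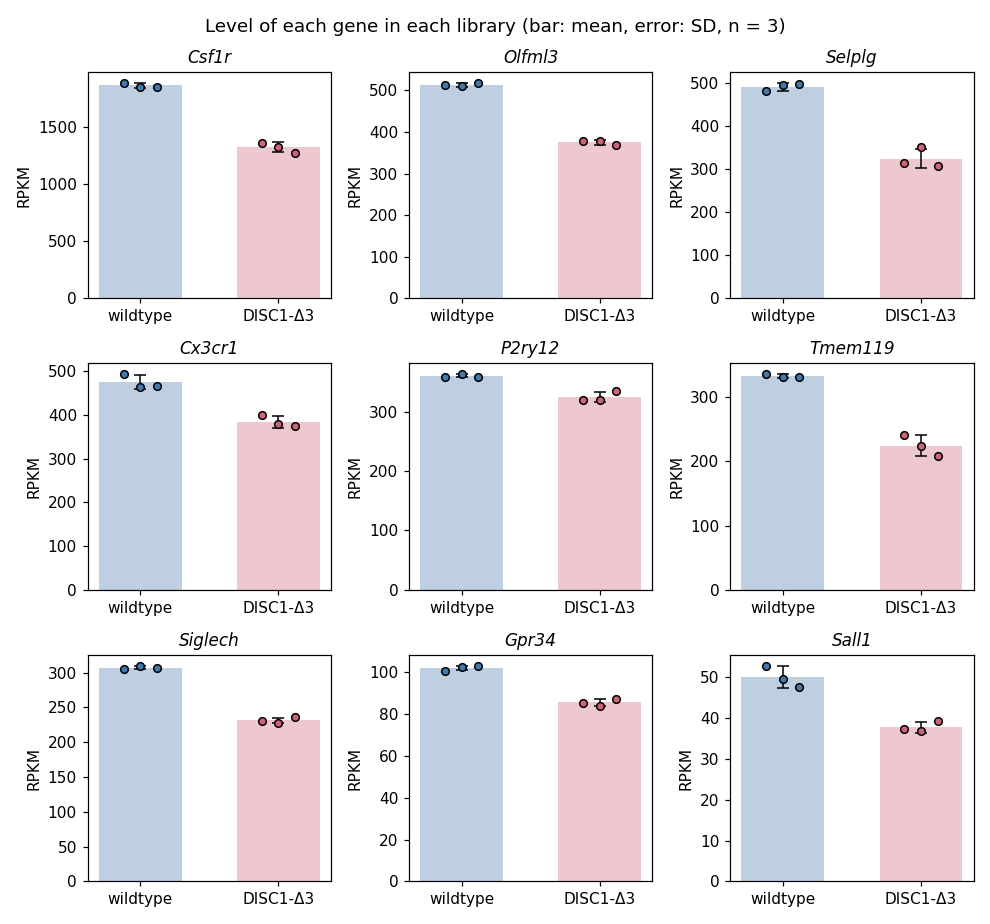
RPKM (vertical axes, each from 0) of the 9 homeostatic microglia genes in the 3 wildtype (blue) and 3 DISC1-Δ3 (red) libraries, with bars for the mean, error bars for the SD and 1 point per library. In each panel the highest DISC1-Δ3 library lies below the lowest wildtype library, with the narrowest step in proportion for P2ry12, from 358.41 to 335.05.

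Promoter sequences are shown because the 9 genes moved in 1 direction. RefSeq promoter windows (GRCm38.p6) were searched for 5 of the 9 genes, P2ry12, Cx3cr1, Sall1, Siglech and Olfml3. Tmem119, Gpr34, Selplg and Csf1r, the most abundant of the 9, were left out of the search, so its counts do not cover them. The 250 bases before the transcription start are given 5′ to 3′ for the member with the smallest fall, P2ry12, and for the 2 members that held a match, with matches to any searched motif in capitals.
P2ry12, chr3:59262986-59263235, minus strand: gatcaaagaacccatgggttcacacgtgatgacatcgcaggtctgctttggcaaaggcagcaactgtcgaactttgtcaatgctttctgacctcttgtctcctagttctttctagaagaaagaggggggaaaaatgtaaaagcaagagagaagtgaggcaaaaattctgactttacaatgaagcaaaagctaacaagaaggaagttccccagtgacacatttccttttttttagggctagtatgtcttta
Cx3cr1, chr9:120068297-120068546, minus strand: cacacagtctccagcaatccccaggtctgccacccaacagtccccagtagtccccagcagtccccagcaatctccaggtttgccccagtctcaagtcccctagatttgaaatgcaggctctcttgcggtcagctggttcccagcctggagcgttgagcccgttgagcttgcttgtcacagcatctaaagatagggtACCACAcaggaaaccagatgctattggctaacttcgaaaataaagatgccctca
Siglech, chr7:55767934-55768183, plus strand: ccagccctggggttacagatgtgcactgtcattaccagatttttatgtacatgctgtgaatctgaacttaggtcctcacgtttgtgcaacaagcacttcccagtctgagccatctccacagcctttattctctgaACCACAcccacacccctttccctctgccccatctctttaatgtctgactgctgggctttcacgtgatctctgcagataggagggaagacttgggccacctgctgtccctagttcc
The motifs, searched on both strands for exact matches only, were GAGGAAGT and its leading part GAGGAA for PU.1, TGTGGT for RUNX factors and GTCTAGAC for SMAD factors. The composite motif of PU.1 with IRF factors (GGAA and GAAA with any 2 bases between them) was also searched. The letters TGTGGT were found, on the opposite strand, in the windows of Cx3cr1, 54 to 49 bases before the start, and of Siglech, 115 to 110 bases before it. The start of Siglech in the promoter table is base 55768184, inside the gene span given further on. Of 32536 such windows of all genes, 13.96% hold these letters. None of the 7 windows of the 5 genes (3 of them for starts of Sall1) held GAGGAA, which is in 23.4% of all windows, nor GAGGAAGT (2.45%), the composite motif (2.31%) or GTCTAGAC (0.169%). The P2ry12 window holds AGGAAGT, which lacks the leading G of GAGGAAGT and was not counted.

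Csf1r, the receptor on which microglia depend for survival, had the highest level. It lies on chromosome 18 at 61105572 to 61131139 (GRCm38, plus strand). Its RPKM was 1889, 1855 and 1851 in wildtype libraries, against 1362, 1328 and 1276 in DISC1-Δ3 libraries. Every DISC1-Δ3 library was below every wildtype library, by more than the spread within either group. The log2 fold change of Csf1r was -0.58 (standard error, SE, 0.044; adjusted p = 8.80e-09), a change of -33.0% with a 95% interval of -37.1% to -28.6%. Csf1r alone made up 41.3% to 41.7% of the summed RPKM of the 9 genes in wildtype and 39.5% to 40.4% in DISC1-Δ3 libraries. In GENCODE its 3′ neighbour Hmgxb3, on the other strand, overlaps 873 bases of its 4885 exonic bases, whereas the RefSeq positions leave 137 bases between them. Hmgxb3 had a mean RPKM of only 11.4 in wildtype.

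Cx3cr1, the fractalkine receptor (chromosome 9, 120048683 to 120068296, minus strand), had an RPKM of 493.1, 464 and 467 in wildtype libraries, against 399.2, 378.6 and 373.9 in DISC1-Δ3 libraries. Replicate 1 was the highest library of both groups, and the groups did not overlap. An antisense gene, Gm33858, overlaps 78 of its exonic bases. Its log2 fold change was -0.39 (SE 0.043, adjusted p = 8.71e-07), a change of -23.9% with an interval of -28.5% to -19.0%.

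P2ry12 and Gpr34 encode related receptors of the P2Y12-like group, for ADP and for lysophosphatidylserine. P2ry12 (chromosome 3, 59216271 to 59262985, minus strand) had an RPKM of 358.7, 362.9 and 358.4 in wildtype libraries, against 320.2, 319.7 and 335.1 in DISC1-Δ3 libraries. The groups were separate but close, and the log2 fold change of -0.23 (SE 0.039, adjusted p = 0.000114) was the smallest of the 9 in size. On reads scaled by edgeR's factors the change was -14.98%, with an interval of -19.7% to -9.99%. Gpr34 (X chromosome, 13622650 to 13640859, plus strand) had 100.7, 102.3 and 103.0 RPKM in wildtype libraries, against 85.4, 83.8 and 87.4 in DISC1-Δ3 libraries. Its log2 fold change was -0.33 (SE 0.043, adjusted p = 7.12e-06), a change of -20.6%. P2ry12 and Gpr34 fell the least of the 9 genes, and Cx3cr1, also a G protein-coupled receptor, came next.

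Selplg and Tmem119 had the largest falls and are direct neighbours on chromosome 5, with 17401 bases between them and both on the minus strand. Selplg encodes PSGL-1, a ligand of selectins, and lies at 113817798 to 113832528. Its RPKM was 481.5, 496 and 499.5 in wildtype libraries, against 315.8, 351.3 and 308.9 in DISC1-Δ3 libraries, with replicate 2 the highest of the DISC1-Δ3 libraries. The log2 fold change of Selplg was -0.68 (SE 0.049, adjusted p = 4.53e-09), a change of -37.5% with an interval of -41.8% to -32.9%. Tmem119, which encodes a membrane protein used as a microglia marker, lies at 113793729 to 113800396. Its RPKM was 335.7, 330.9 and 331 in wildtype libraries, against 240.6, 224.7 and 208.7 in DISC1-Δ3 libraries. Its log2 fold change was -0.65 (SE 0.051, adjusted p = 1.36e-08), a change of -36.1%. The ratio of Tmem119 to Selplg was 0.676 ± 0.0188 in wildtype and 0.692 ± 0.0629 in DISC1-Δ3 libraries (SD, n = 3 each; two-sided exact permutation test, p = 0.8).

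Siglech, a sialic acid-binding lectin of microglia, Olfml3, a secreted olfactomedin-like protein, and Sall1, the zinc-finger factor of microglial identity, lay between these extremes. Siglech (chromosome 7, 55768154 to 55779448, plus strand) had 306, 310.1 and 306.3 RPKM in wildtype libraries, against 231.3, 228.1 and 235.7 in DISC1-Δ3 libraries. Olfml3 (chromosome 3, 103735394 to 103738001, minus strand) had 511.6, 509.8 and 518.4 against 378.8, 378.9 and 368.1 RPKM. Both had a gap between the groups that was several times the range within them. Sall1 (chromosome 8, 89027242 to 89044162, minus strand) was the lowest of the 9, with 52.8, 49.5 and 47.6 RPKM in wildtype libraries, against 37.3, 36.7 and 39.2 in DISC1-Δ3 libraries. The log2 fold changes were -0.49 for Siglech (SE 0.040, adjusted p = 2.32e-08), -0.53 for Olfml3 (SE 0.041, adjusted p = 9.59e-09) and -0.49 for Sall1 (SE 0.046, adjusted p = 1.70e-07). Siglech belongs to a family of similar Siglec genes, among which shared reads could have been divided.

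Ordered by mean RPKM in wildtype, the genes were Csf1r, Olfml3, Selplg, Cx3cr1, P2ry12, Tmem119, Siglech, Gpr34 and Sall1, and among neighbours in this order Selplg and Cx3cr1 alone had overlapping ranges. In DISC1-Δ3 libraries Cx3cr1 stood second with 383.9 and overlapped Olfml3 with 375.2. Selplg with 325.3 overlapped P2ry12 with 325.0, and Siglech with 231.7 overlapped Tmem119 with 224.7. The ratio of Selplg to P2ry12, a pair chosen after their values were seen and one that no scaling of the libraries changes, was 1.34, 1.37 and 1.39 in wildtype libraries, against 0.986, 1.10 and 0.922 in DISC1-Δ3 libraries. The groups did not overlap (two-sided exact permutation test, p = 0.1, the smallest that 3 against 3 libraries allow).

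The 9 genes were then set against 17 core microglia genes that are not among them, such as Tyrobp and the C1q genes. Of those 17, 16 were lower and 0 higher, with a median log2 fold change of -0.42 and a sum of 18116 to 18595 RPKM in wildtype and 12989 to 13492 in DISC1-Δ3 libraries. The lowest were Ly86, a partner of an innate immune receptor, at -0.71, C1qb, a chain of the complement starter C1q, at -0.69 and the lysosomal protease Ctss at -0.69 (adjusted p = 2.47e-10, 8.67e-10 and 4.07e-09). P2ry13, an ADP receptor beside P2ry12 on chromosome 3, did not pass the threshold, at -0.06 (SE 0.044, adjusted p = 0.314), with mean RPKM of 93.8 ± 2.02 and 95.2 ± 3.22 (SD, n = 3 each). It was called lower with OPC marker scaling (-0.14, adjusted p = 0.0302). The ratio of P2ry12 to P2ry13, a pair not set in advance, was 3.81, 3.96 and 3.75 in wildtype libraries, against 3.49, 3.26 and 3.50 in DISC1-Δ3 libraries (two-sided exact permutation test, p = 0.1, the smallest possible here).

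When libraries were scaled by the summed reads of the 17 core genes, 3 of the 9 genes were higher, 2 lower and 4 not past the threshold in edgeR's test. This scaling asks how each gene moved per microglia read, and raised the median log2 fold change of all tested genes to 0.52. In this fit 11194 of the 13792 tested genes were called, 97.3% of them higher. P2ry12 was higher by 0.28 on the log2 scale (SE 0.039, adjusted p = 1.33e-05), Gpr34 by 0.18 (adjusted p = 0.00225) and Cx3cr1 by 0.12 (adjusted p = 0.0130). Selplg was at -0.17 (adjusted p = 0.000822) and Tmem119 at -0.14 (adjusted p = 0.0121). Csf1r at -0.07 (95% interval -0.14 to 0.00), Olfml3 at -0.02 (-0.09 to 0.05), Siglech at 0.03 (-0.06 to 0.11) and Sall1 at 0.02 (-0.09 to 0.14) did not pass the threshold. The call of Cx3cr1 was lost without wildtype replicate 2 (adjusted p = 0.0776), wildtype replicate 3 (adjusted p = 0.0640) or DISC1-Δ3 replicate 1 (adjusted p = 0.0507), and without the last Csf1r was called lower, at -0.09 (adjusted p = 0.0143). With Tyrobp, C1qa, C1qb and C1qc as the only reference, 6 were higher and 0 lower, and with the core genes without C1q 1 was higher and 4 lower. P2ry12 was higher under all 3 references, at 0.41 and 0.19 under the latter 2. The share of all tested genes called under the latter 2 is not reported here. The fits with a library left out and with these other references were added after the values were seen.

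**Figure D2:**
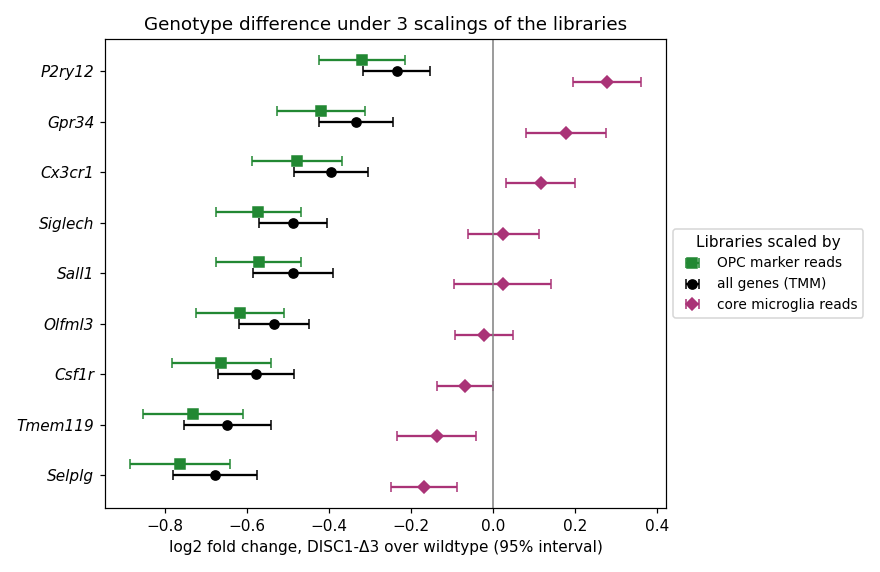
Log2 fold change (horizontal axis, DISC1-Δ3 over wildtype, points with 95% intervals) of the 9 genes with libraries scaled over all genes (black), by the summed reads of 8 OPC markers (green) or of 17 core microglia genes (purple). Black and green intervals lie below 0 for all 9 genes, while purple points run from -0.17 for Selplg to 0.28 for P2ry12.

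**Figure D3:**
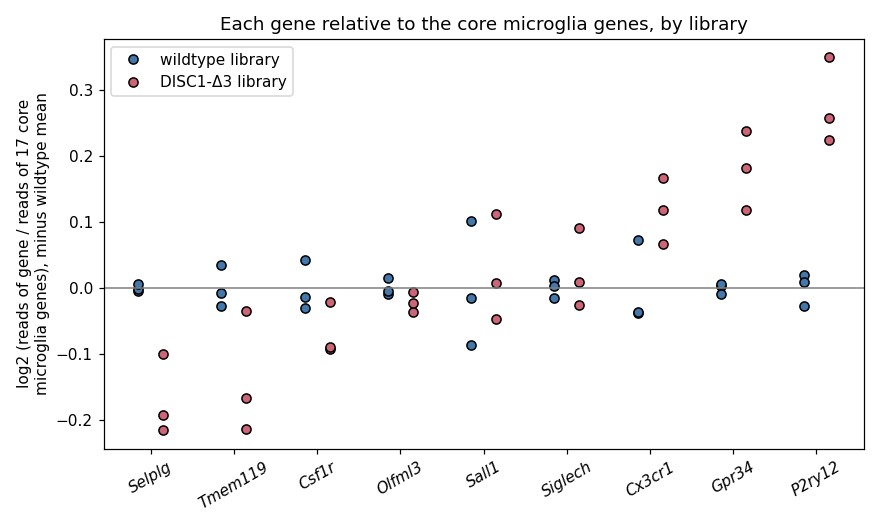
Log2 ratio of each gene's reads to the summed reads of 17 core microglia genes (vertical axis, minus the wildtype mean) in each wildtype (blue) and DISC1-Δ3 (red) library. The groups are apart for P2ry12, Gpr34, Selplg and Tmem119 and overlap for the other 5 genes.

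Genes that control the microglial program moved with the members. Of 16 regulators tested, 12 were lower and 0 higher, with a median log2 fold change of -0.47, against the 19.5% of all tested genes that were lower. The largest fall was that of Cebpa, a myeloid transcription factor, from an RPKM of 117.6 ± 0.474 to 66.9 ± 2.17 (SD, n = 3 each), or -0.89 on the log2 scale (SE 0.045, adjusted p = 3.49e-11). The TGF-β receptor gene Tgfbr1 followed at -0.73 (adjusted p = 5.20e-09) and the factor Mef2a at -0.70 (adjusted p = 2.04e-06). Spi1, Irf8 and Runx1 were lower, with log2 fold changes of -0.34, -0.48 and -0.46, and so was Tgfb1, at -0.51. The signal transducer genes Smad2, Smad3 and Smad4 are shared by many cell types. Smad3 was lower, at -0.24, whereas Smad2 at 0.03 and Smad4 at 0.11 did not pass the threshold (adjusted p = 0.768 and 0.102). Under the core microglia scaling, which called most tested genes higher, 5 regulators were higher and 2 lower. Scaling by RPKM sums and both limma fits called 1 regulator, Smad4, higher.

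Of 15 ligands, partners and relatives of the members 10 were tested, 3 were higher and 1 lower, and the median log2 fold change was 0.11. Cx3cl1, the ligand of CX3CR1, rose from an RPKM of 9.52 ± 0.671 to 18.4 ± 1.42 (SD, n = 3 each), or 0.88 on the log2 scale (SE 0.079, adjusted p = 7.89e-08). The ratio of Cx3cr1 to Cx3cl1 was 47.6 to 53.3 in wildtype and 19.2 to 22.1 in DISC1-Δ3 libraries. Of the ligands of CSF1R, Csf1 did not pass the threshold, at 0.04 (SE 0.046, adjusted p = 0.581), and Il34 was higher, at 0.46 (SE 0.15, adjusted p = 0.0207). The call of Il34 was lost without wildtype replicate 1 (adjusted p = 0.116), DISC1-Δ3 replicate 2 (adjusted p = 0.107) or under the OPC scaling (adjusted p = 0.0582). The selectin genes Selp and Sele were below the filter. Among relatives, Olfml2b was lower, at -0.26 (adjusted p = 0.00504), and Sall3 higher, at 0.16 (adjusted p = 0.0311). The call of Sall3 was lost in DESeq2, with OPC marker scaling and without any 1 library other than wildtype replicate 1 (adjusted p = 0.0599 to 0.327). Per core microglia read, where most tested genes were called higher, 9 genes of this list were higher and 0 lower, with Olfml2b at 0.25. Under the other alternatives 1 to 5 were higher and 1 to 3 lower.

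Of 15 genes known from activated microglia, 4 were higher and 6 lower, with a median of -0.08. Per core microglia read, where most tested genes were called higher, 11 were higher and 1, Il1b, lower. Gpnmb rose from an RPKM of 3.54 ± 0.288 to 19.2 ± 0.932, Spp1 from 14.03 ± 0.670 to 48.8 ± 2.48 and Itgax from 2.29 ± 0.273 to 5.05 ± 0.131 (SD, n = 3 each). Their log2 fold changes were 2.35, 1.72 and 1.08 (adjusted p = 1.21e-13, 2.88e-12 and 3.25e-07), and all remained higher in every alternative fit. The inflammatory cytokine gene Il1b had the largest fall, at -1.46 (adjusted p = 1.84e-10), followed by the chemokine genes Ccl4 at -0.55 and Ccl3 at -0.53. Axl at -0.40, Cst7 at -0.39 and Apoe at -0.22 were the other genes called lower, and Igf1 at 0.24 the other called higher. Lpl and Clec7a did not pass the threshold. Spp1, Gpnmb and Itgax are not exclusive to microglia.

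Markers of other cells moved in both directions beside the members, and their part in the result was not tested. Of 8 OPC markers 6 were higher and 1, Ptprz1, lower, with a median log2 fold change of 0.38. Lhfpl3, Olig2, Pdgfra and Cspg4 were at 0.63, 0.53, 0.48 and 0.46. When the OPC markers set the scaling, an alternative added after the values were seen, all 9 members stayed lower, with a median of -0.57. Of 8 genes of border-associated macrophages 4 were lower and 0 higher (Cbr2 at -0.64, Stab1 at -0.40 and Mrc1 at -0.32), with a median of -0.03 and a sum of 204.9 to 214.9 RPKM in wildtype and 174.3 to 182.2 in DISC1-Δ3 libraries. Of 9 tested genes of monocytes and neutrophils 6 were lower and 1 higher, with a median of -0.57 and sums of 232.0 to 256.7 and 164.0 to 179.5 RPKM. Maturing oligodendrocyte genes were lower for 7 of 8 (median -0.46, sums 2444 to 2484 and 2252 to 2291 RPKM), and astrocyte genes lower for 6 and higher for 1 of 8 (median -0.24, sums 1965 to 2005 and 1888 to 1906). Neuronal genes were higher for 6 of 8 (median 0.30, sums 350.1 to 352.5 and 417.1 to 438.2), endothelial genes for 4 of 8 (median 0.19, sums 147.0 to 156.6 and 196.05 to 196.5), and pericyte genes, whose cells also use the NG2 promoter, for 7 of 8 (median 0.47, sums 152.6 to 162.2 and 217.3 to 224.8), with 0 lower in these 3 lists. Without DISC1-Δ3 replicate 3 there were 2 neuronal genes lower, and 1 without a filter and with OPC marker scaling. Of 8 proliferation genes 1, Mki67, was lower and 0 higher (median -0.03), a call that was lost in most alternatives, with 2 lower without DISC1-Δ3 replicate 3 and 1 higher with RPKM sums and in both limma fits. Of 8 immediate-early genes, which respond to cell isolation, 4 were lower and 1 higher (median -0.22, sums 4214 to 4299 and 3533 to 3642). Per core microglia read, where most tested genes were called higher, the border-associated macrophage genes were higher for 7 and lower for 0. Monocyte and neutrophil genes were then higher for 2 and lower for 2. On that scale astrocyte genes were higher for 7, proliferation genes for 6, immediate-early genes for 5 and maturing oligodendrocyte genes for 3. In the last 2 of these lists 1 gene each was lower. OPC, pericyte and endothelial genes were higher for 8 each and neuronal genes for 7, with 0 lower. Under the other alternatives 0 to 2 genes of border-associated macrophages were higher and 3 to 4 lower. In each of these lists every gene had a value above 0 in at least 1 library.

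**Figure D4:**
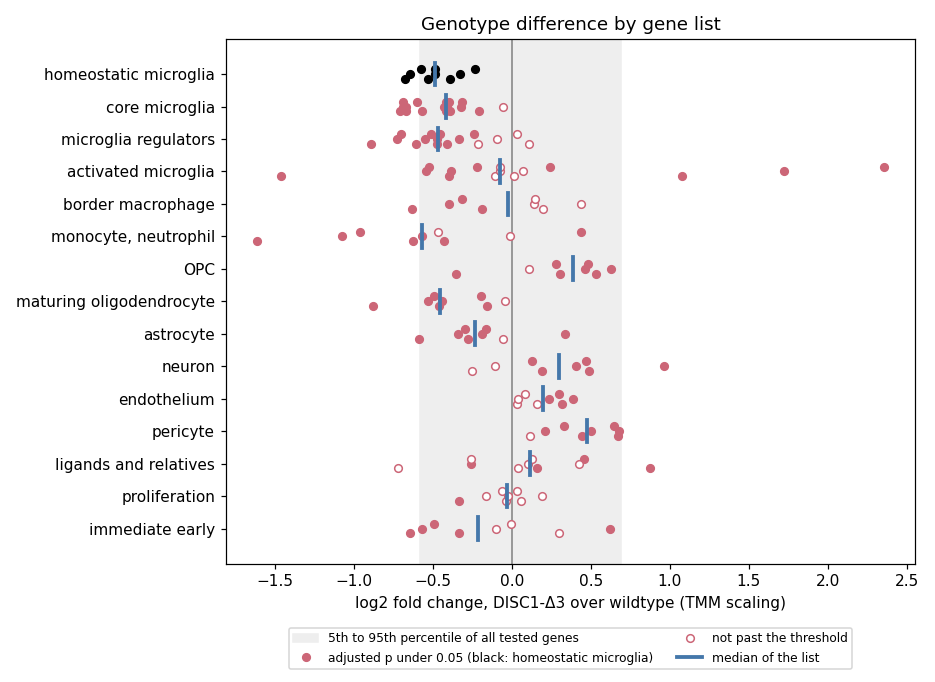
Log2 fold change (horizontal axis, DISC1-Δ3 over wildtype) of each tested gene in 15 lists, filled where the adjusted p was under 0.05, with a blue bar at each list's median and grey shading from the 5th to the 95th percentile of all tested genes. All 9 homeostatic microglia genes (black) lie between -0.68 and -0.23, with medians of -0.49 for them, -0.42 for core microglia genes and 0.38 for OPC markers.

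Over the 6 libraries, the genes outside the list whose profile of log2 CPM (counts scaled to library size), centred on its mean, lay nearest to the mean profile of the 9 were Mast3, Rhob, Lgals9, Pfkfb4 and Lipe. Their root mean square differences from it were 0.0153 to 0.0211 on the log2 scale, and their log2 fold changes -0.52 to -0.46. Among the 9, Siglech and Olfml3 were nearest to their own mean, at 0.0273 and 0.0276, and P2ry12 the farthest, at 0.129. With 3 libraries in each genotype, this measure mostly reflects the size of the difference between genotypes.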

How the data were processed

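PolyA RNA of immunopanned OPCs was sequenced as single-end reads from 3 wildtype and 3 DISC1-Δ3 libraries. The authors deposited, for each gene and library, an expected count, in which 90.2% of the values above 0 are whole, and an RPKM, which the authors scaled by transcript length and library total. Submitters' notes name Bowtie2 2.2.5 and mm10. The counting tool is not given in the sources used here, and strand was not stated. The study's text names DESeq2. Another 4 columns of group means were not used.

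Expected counts were rounded and compared with edgeR 4.0.16 (R 4.3.3, TMM scaling, genotype as the only term) for genes that reached 0.5 RPKM in 3 or more libraries, which kept 13792 of 18211. P-values are two-sided, adjusted by Benjamini-Hochberg over all of them, with a threshold of 0.05. Libraries were scaled by TMM factors of 0.970 to 1.04. Intervals are at 95%. At these depths the members had 2201 to 109069 reads per library. DESeq2 1.42.0 and limma 3.58.1 served as alternatives. The members and lists (core, regulator and activated microglia genes, ligands and relatives, other macrophages and blood cells, neural and vascular cells, proliferation, immediate-early genes) were chosen with earlier results of these data known. Named genes were the members, Disc1, Cspg4, relatives of members, up to 3 called genes per direction and list, and the 5 nearest profiles. Neighbouring genes, the other genes compared as pairs, Tyrobp and the further activated microglia genes were named after values were seen. Gene positions came from RefSeq GRCm38.p6, the same assembly as mm10, with 18081 of 18211 gene IDs matched, and exon overlaps from GENCODE. Promoter matches were counted over distinct windows. Single values of some list genes are not reported here.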

Additional observations from a re-analysis of the deposited data

How the results depend on the processing

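Under 15 alternatives that kept a scaling over all genes, all 9 homeostatic microglia genes stayed lower and past the threshold, and P2ry12, the smallest fall, ran from -0.25 to -0.15 (adjusted p up to 0.00629). These were other scalings, filters, DESeq2, limma, robust empirical Bayes, the replicate block and each library left out. Their median log2 fold change, -0.49, was -0.49 under median-of-ratios scaling, without a filter and in DESeq2, -0.40 with RPKM sums, -0.41 in both limma fits and -0.57 with OPC marker scaling, and ran from -0.52 to -0.49 with each library left out. Scaling by core microglia genes gave 2 lower and 3 higher members and a median of 0.024, since it removes the common fall by construction. It called 11194 genes, 97.3% of them higher, and gave 0.28 for P2ry12, 0.12 for Cx3cr1, 0.024 for Sall1, 0.025 for Siglech, 0.18 for Gpr34 and 0.062 for Disc1 (adjusted p = 0.566, against -0.45 and 0.000528 with TMM). Other signs that turned under it were those of P2ry13 (0.45), Olfml2b (0.25), Spi1 (0.17), Irf8 (0.033), Runx1 (0.051), Smad3 (0.27), Ptprz1 (0.16), Stab1 (0.11), Mrc1 (0.20), Mast3 (0.018), Rhob (0.030), Lgals9 (0.047) and Pfkfb4 (0.021). Over all genes 5498 were called, 51.1% higher, against 70.0% with RPKM sums, 69.2% in limma and 32.2% with OPC marker scaling. The median ratio of the members to the core genes, 0.024 on the log2 scale, was 0.16 against Tyrobp and the C1q genes and ran from -0.020 to 0.049 with each library left out, with a turned sign (-0.019 and -0.020) when replicate 3 of either genotype was left out. Same-numbered libraries did not deviate together (correlations 0.058, 0.022 and -0.049), so the replicate numbers were not taken as pairs; with the replicate block 5429 genes and all 9 members were called, with a median of -0.49. Depth did not limit the members, which had at least 2201 reads in each library.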
